A study of Mus musculus with 14 samples.

Results

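Spheroids in which *Dhps* was silenced were compared with control spheroids whose medium was not supplemented with aspartate. The comparison used 7 of the 14 libraries of the series, 4 of ASP shDHPS (replicates 1 to 4) and 3 of NoASP shSCR (replicates 2 to 4), chosen by their labels and not by any measured value. Both groups were spheroids of 4T1, a mouse line of triple-negative breast cancer, kept in lung-like medium (LLM) over 5 days, whose nutrients imitate the fluid between lung cells. ASP shDHPS carried a hairpin against *Dhps* and had 700 µM aspartate in the medium. NoASP shSCR carried a scrambled hairpin and had no aspartate added, so hairpin and aspartate differed together and their effects cannot be told apart in these 7 libraries alone. The remaining groups, ASP shSCR (n = 4) and ASP shGRIN2D (n = 3, a hairpin against the NMDA receptor subunit gene *Grin2d*), both had aspartate, and are used where a value is needed to set the 2 differences side by side. Their libraries also entered the estimate of spread behind the p-values. All hairpins were stable lentiviral constructs in cells selected as a population with puromycin, and the labels name neither which *Dhps* hairpin was sequenced nor whether replicates were separate cultures. The study's methods describe independent spheroid pellets for its polysome fractions and take this RNA from the lysates put into them, and p-values measure the spread between the libraries.

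*Dhps* encodes deoxyhypusine synthase, which transfers an aminobutyl group from the polyamine spermidine to a single lysine of the translation factor eIF5A. Deoxyhypusine hydroxylase, encoded by *Dohh*, then completes the residue called hypusine. Hypusinated eIF5A helps ribosomes through stretches that are slow to translate and through termination, and its level depends on both enzymes and on the supply of polyamines. The libraries measured mRNA in the cytosolic lysate of spheroids that had been collected from soft agar and washed with the translation inhibitor cycloheximide, not protein or hypusine.

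The 7 libraries held between 14883457 and 19346701 counts. Replicates of each group had r of 0.986 to 0.989 across genes. Their squared differences were 7.69 to 41.8 times the variance expected from sampling alone, so none was a copy of another. On the first principal component of the 7 libraries (44.6% of the variance), ASP shDHPS replicate 1 at 26.1 and NoASP shSCR replicate 2 at -23.2 lay at opposite ends. Of the 74 named genes that passed below, 39 passed without both, and *Gpc4* (adjusted p = 0.052) and *Hexa* (0.0667) were among those lost. The summed level of 5 epithelial markers (*Epcam*, *Krt8*, *Krt18*, *Krt19*, *Cdh1*) was 3213 to 3749 CPM in ASP shDHPS and 4024 to 4186 CPM in NoASP shSCR, where CPM, the usual per-million unit, is the count relative to the TMM-scaled total of its library. Of the 10 leukocyte markers looked for, 6 were in the table, with a sum of 13.2 to 17.6 CPM against 10.8 to 11.2 CPM. Of the 9 fibroblast and vessel markers, 5 were in the table, with sums of 23.1 to 30.8 and 26.2 to 34.7 CPM. *Ptprc*, which defines leukocytes, was at 0.214 to 0.648 CPM in the knockdown and 0.0535 to 0.422 CPM in the control, and what part these small sums had in any result was not tested.

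*Dhps* itself (ENSMUSG00000060038) was reduced in every library of the knockdown. Its level was 5.57, 5.46, 7.62 and 9.08 CPM in ASP shDHPS replicates 1 to 4 and 17.8, 23.8 and 20.8 CPM in NoASP shSCR replicates 2 to 4. The 2 groups did not overlap, and the highest knockdown library lay below the lowest control. The gene fell 2.99-fold (log2 difference -1.58, SE 0.160, adjusted p = 1.63e-05 by edgeR's quasi-likelihood test with Benjamini-Hochberg adjustment over 19525 genes), and an exact two-sided permutation test over the 35 assignments of the 7 libraries to the groups gave p = 0.0286, the smallest value possible with 4 against 3. Leaving out any 1 library kept the log2 difference between -1.74 and -1.47. In bulk libraries, less RNA per cell and fewer cells carrying the transcript cannot be told apart.

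**Figure D1:**
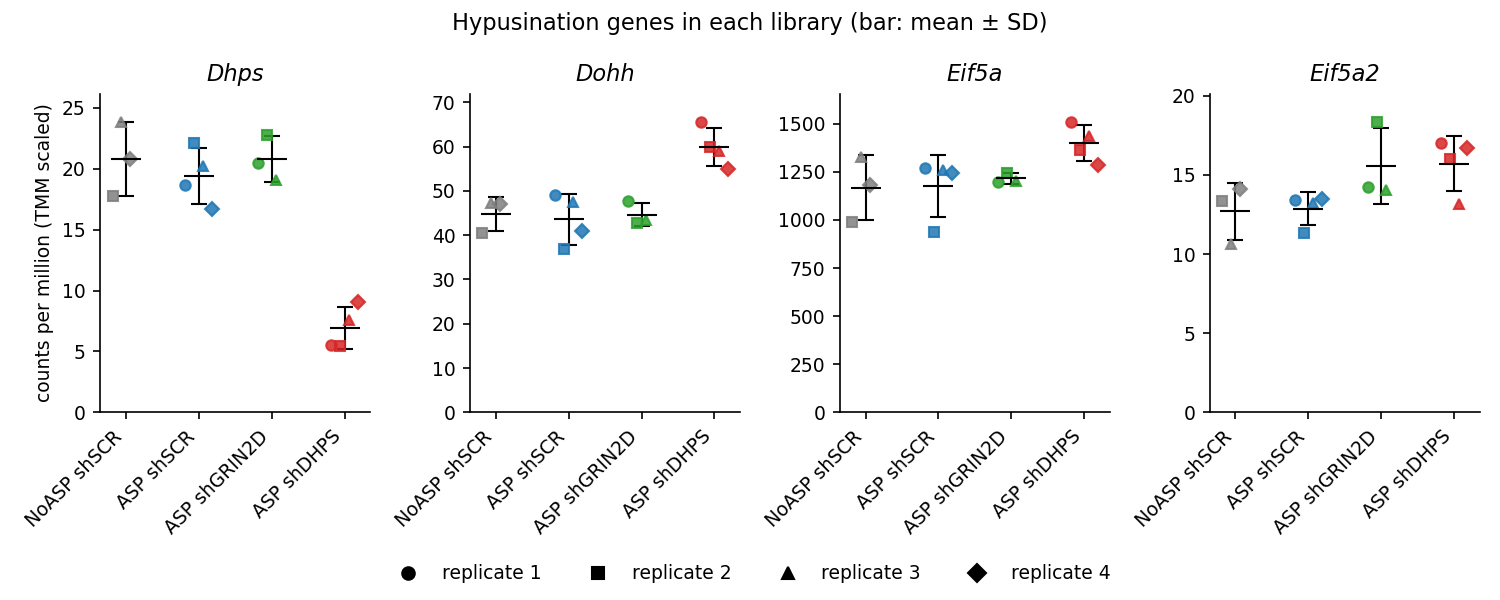
Level (CPM) of the 4 hypusination genes in all 14 libraries, by group on the horizontal axis; shapes are replicate numbers, black bars the mean and SD. *Dhps* lies between 5.46 and 9.08 CPM in ASP shDHPS and at 16.7 CPM or more in every other library, while *Dohh* is highest in ASP shDHPS.

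The second enzyme had the opposite sign. *Dohh* stood at 65.5, 59.9, 59.0 and 55.0 CPM in ASP shDHPS and at 40.4, 47.2 and 47.0 CPM in NoASP shSCR. No library of either group entered the range of the other, yet the difference just missed the threshold (log2 difference 0.42, SE 0.109, adjusted p = 0.0507), and with the replicate number as a block it passed (adjusted p = 0.0187). Against ASP shGRIN2D, which had the same aspartate as the knockdown, *Dohh* was higher in ASP shDHPS by 0.42 on the log2 scale (adjusted p = 0.0359). Aspartate alone, measured as ASP shSCR minus NoASP shSCR, gave a difference of -0.04 (unadjusted p = 0.722). *Eif5a*, the main substrate, held 1287 to 1506 CPM in the knockdown and 991 to 1328 CPM in the control (0.26, adjusted p = 0.240), and its paralog *Eif5a2* held 13.2 to 17.0 and 10.7 to 14.1 CPM (0.31, adjusted p = 0.276). Both sets of values overlapped, and neither gene passed.

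Across the transcriptome, 354 of 19525 genes (1.81%) passed an adjusted p of 0.05, with 122 higher (0.625%) and 232 lower (1.19%) in ASP shDHPS. Of these, 344 had CPM values that did not overlap between the groups, against 13.6% (6.85% higher, 6.79% lower) of the 16573 genes with over 3 counts in at least 1 of the 7 libraries. A change of at least 1.5-fold was reached by 41 of the higher and 148 of the lower genes. The list and set counts below stand against 354 of the 16573 genes with over 3 counts (2.14%), or 1036 with the replicate block. An unadjusted p under 0.05 was reached by 3106 of the 16573. A fit that took the replicate number as a block passed 1036 genes (5.31%), 405 higher (2.07%) and 631 lower (3.23%), with 353 of the 354 among them. The count depended on single libraries. Only 69 genes passed without NoASP shSCR replicate 2 and 98 without NoASP shSCR replicate 4, whereas 546 passed without ASP shDHPS replicate 4, 686 without NoASP shSCR replicate 3 and 177 without ASP shDHPS replicate 3. After correction of each library for transcript length and GC content 493 passed (221 higher, 272 lower), and with the block as well 1238 (637 higher, 601 lower), so that the share of higher genes was 34.5% without the correction, 44.8% with it and 51.5% with both. Without both end libraries of the first component 81 passed, and a fit of the 7 libraries alone, without the other groups' share in the estimate of spread, gave 177.

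**Figure D2:**
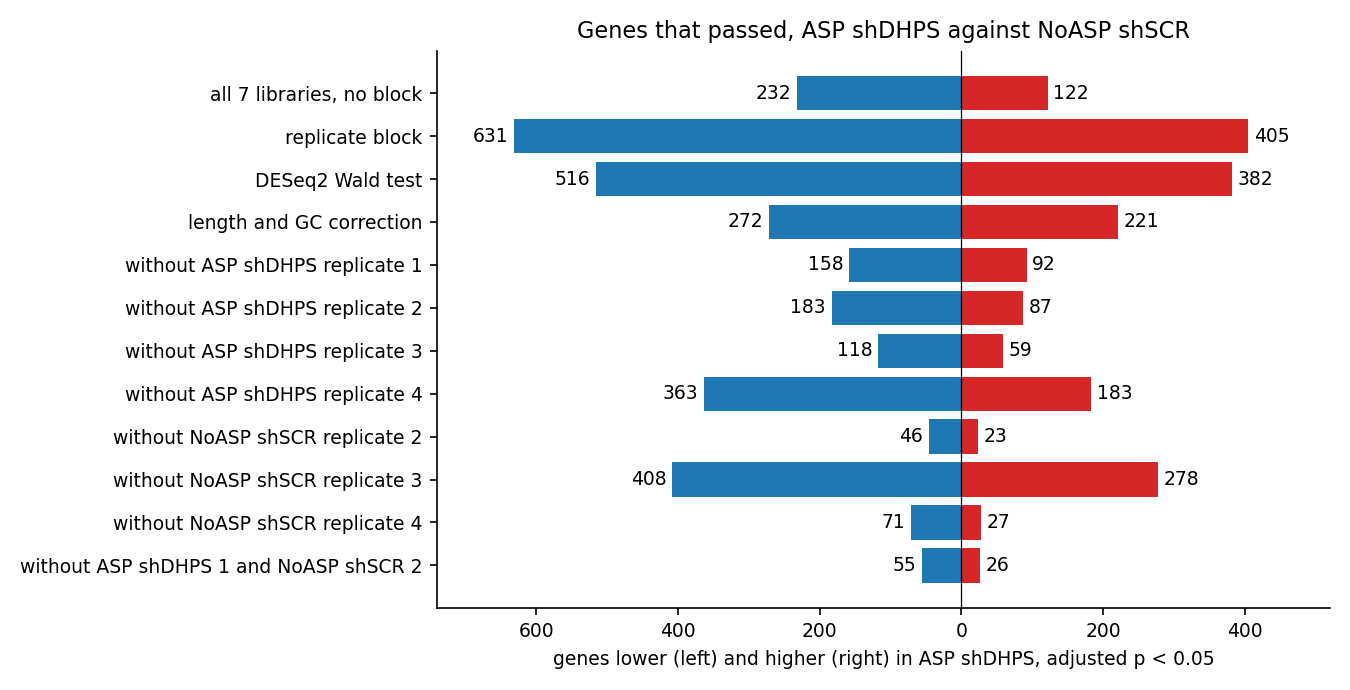
Number of genes lower (blue, left) and higher (red, right) in ASP shDHPS than in NoASP shSCR at an adjusted p under 0.05, by setting on the vertical axis. Lower genes outnumber higher ones in each of the 12 settings drawn, and the total runs from 69 without NoASP shSCR replicate 2 to 1036 with the replicate block. The label of 7 libraries names those compared, and the spread was estimated with the other groups included.

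For aspartate on its own no gene passed. ASP shSCR against NoASP shSCR gave 0 of 19525 genes by edgeR and 0 by DESeq2 (424 at an unadjusted p under 0.05), and this contrast is also the difference between the effect of the hairpin measured against NoASP shSCR and against ASP shSCR. With the replicate block 2 genes passed. The knockdown set against ASP shSCR gave 824 genes (4.22%), and set against ASP shGRIN2D, the other silenced line, 550 genes (2.82%). These comparisons share the ASP shDHPS libraries, so their values are set side by side and are not independent of each other.

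The genes that rose most were led by a lysosomal glycoprotein, secreted factors and stress genes. *Gpnmb*, a transmembrane glycoprotein of lysosomes and melanosomes, was at 51.9, 60.6, 73.4 and 73.0 CPM in ASP shDHPS and at 12.6, 22.5 and 24.3 CPM in NoASP shSCR. Every knockdown library was more than 2-fold above every control library, and the gene rose 3.27-fold (log2 difference 1.71, SE 0.185, adjusted p = 3.27e-05). *Igfbp7*, a secreted protein that binds insulin-like growth factors, had 9.29 to 11.8 CPM against 2.56 to 4.6 CPM and rose 2.84-fold (adjusted p = 0.000485). *Prnd*, which encodes the prion-like protein doppel, had 22.6 to 28.8 against 7.92 to 12.5 CPM (2.50-fold, adjusted p = 0.00108).

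Others of the 14 largest rises lay between 1.79-fold and 2.15-fold, apart from the overlapping gene below. *Msrb3*, a methionine sulfoxide reductase, was at 21.5, 19.9, 17.2 and 21.0 CPM against 8.99, 9.29 and 10.1 CPM, with both groups narrow and apart. It rose by 1.07 on the log2 scale (SE 0.137, adjusted p = 0.00027). *Gpc4*, a heparan sulfate proteoglycan of the cell surface, rose from 4.55 to 5.12 CPM to 8.17 to 12 CPM (adjusted p = 0.00265), and *Ccn1*, a matricellular protein, from 25.5 to 50.8 CPM to 68.6 to 87.8 CPM (adjusted p = 0.00642). In *Ccn1*, the controls were spread more widely than the knockdown and NoASP shSCR replicate 2 was the lowest. *Cst6*, an inhibitor of cysteine proteases, rose 1.84-fold and *Chchd10*, a protein of the mitochondrial intermembrane space, 1.79-fold, both with an adjusted p of 0.00642. The remaining members were *Atp13a4*, *Atf3* and *Chac1*, given with their groups below, *Fam171b* (1.92-fold) and the histone gene *H2bc4* (1.80-fold), whose near-identical copies make the assignment of reads uncertain.

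The largest fitted rise, 3.33 on the log2 scale, belonged to *Derpc* and is the least certain of the 14. It had 12.4, 5.46, 48.9 and 10.8 CPM in ASP shDHPS and 0.910, 1.69 and 3.22 CPM in NoASP shSCR. The groups did not overlap, but replicate 3 held more than the other knockdown libraries together, and *Derpc* overlaps *Chtf8*, so that reads can be divided between both. Its adjusted p of 0.0121 became 0.103 without NoASP shSCR replicate 2 and 0.0502 without NoASP shSCR replicate 4. ASP shGRIN2D had a mean of 11.3 CPM, and the difference between both silenced lines did not pass (adjusted p = 0.543). Without NoASP shSCR replicate 2 the test was also missed by *Atp13a4* (adjusted p = 0.193), *Atf3* (0.0515), *Fam171b* (0.0795), *Cst6* (0.0629) and *H2bc4* (0.0525), and without NoASP shSCR replicate 4 by *Atp13a4* (0.0981) and *Chchd10* (0.0520). *Atp13a4* missed it without ASP shDHPS replicate 3 as well (0.0725).

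**Figure D3:**
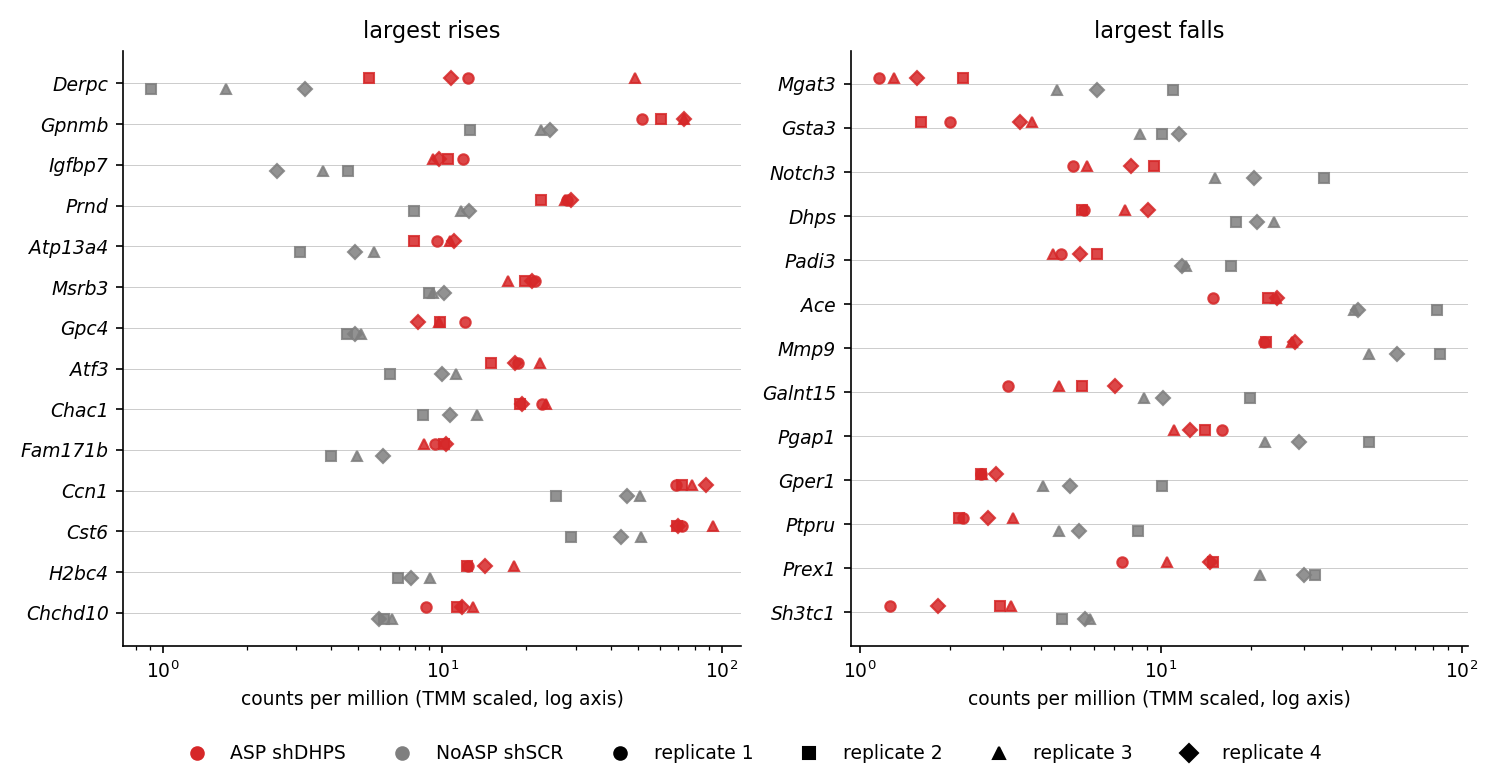
Level (CPM, log axis) in each of the 7 libraries for the 14 strongest rises and 13 of the 14 strongest falls; red is ASP shDHPS, grey NoASP shSCR and shapes are replicate numbers. The choice of genes required that the groups did not overlap, and *Derpc* has the widest spread within the knockdown.

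The genes that fell most included a glycosyltransferase, a Notch receptor, a surface peptidase and a matrix protease. *Mgat3*, the enzyme that adds the bisecting N-acetylglucosamine to N-glycans, had 1.16, 2.20, 1.30 and 1.55 CPM in ASP shDHPS and 11.0, 4.54 and 6.12 CPM in NoASP shSCR. The groups were apart by more than 2-fold at their nearest libraries, and the gene fell 4.70-fold (log2 difference -2.23, SE 0.319, adjusted p = 0.000807). *Notch3* was at 5.10, 9.53, 5.67 and 7.95 CPM against 35.0, 15.1 and 20.4 CPM, a fall of 3.35-fold (adjusted p = 0.00161). *Mmp9*, the gelatinase that cleaves basement membrane collagen, was at 22.0 to 27.9 CPM against 49.3 to 84.8 CPM (2.61-fold, adjusted p = 0.000921).

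*Ace*, the angiotensin-converting enzyme, stood at 14.9, 22.8, 24.1 and 24.2 CPM against 82.4, 43.7 and 45.2 CPM. It fell 2.66-fold (adjusted p = 0.00130), as did *Padi3*, a peptidylarginine deiminase (4.37 to 6.13 against 11.7 to 17.1 CPM, adjusted p = 0.000211). *Prex1*, an activator of the small GTPase Rac, had 7.41 to 14.9 CPM against 21.4 to 32.4 CPM (2.37-fold, adjusted p = 0.00130). In *Mgat3*, *Notch3*, *Ace*, *Mmp9*, *Padi3*, *Pgap1*, *Galnt15*, *Gper1*, *Ptpru* and *Prex1* the highest control library was NoASP shSCR replicate 2. *Gsta3*, a glutathione transferase with near-identical family members that share reads, fell 3.70-fold. *Galnt15*, which starts O-glycans, *Pgap1*, which trims the lipid anchor of surface proteins, *Gper1*, a G protein-coupled estrogen receptor, *Ptpru*, a receptor tyrosine phosphatase, and *Sh3tc1* fell 2.35-fold to 2.56-fold. The test was missed without NoASP shSCR replicate 2 by *Galnt15* (adjusted p = 0.263), *Gper1* (0.165) and *Ptpru* (0.0855), and without NoASP shSCR replicate 4 by *Galnt15* (0.0584) and *Sh3tc1* (0.0647). *Galnt15* also missed it without ASP shDHPS replicate 1 (0.0744) or 3 (0.0793). Among 14 measured enzymes of glycan branching and capping, *Mgat3* fell and 1 rose (2 and 2 with the block), the sialyltransferase gene *St3gal4* (187 to 220 against 142 to 156 CPM, 1.35-fold, adjusted p = 0.0267), which missed the test without NoASP shSCR replicate 2 (0.162) or 4 (0.138) or ASP shDHPS replicate 1 (0.0548) or 3 (0.0606).

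Several genes of the lysosome rose. Of 35 measured genes on a list of lysosomal proteins and their MiT/TFE transcription factors, 7 rose and 0 fell (12 and 1 with the replicate block), the median log2 difference was 0.23 and 27 of 35 were positive, against a median of -0.00064 and 8272 of 16573 over all genes with over 3 counts. Besides *Gpnmb*, the membrane protein *Lamp1* was at 984, 911, 953 and 894 CPM in ASP shDHPS and at 611, 672 and 658 CPM in NoASP shSCR. The groups were well apart, and the gene rose 1.45-fold (log2 difference 0.53, SE 0.0812, adjusted p = 0.00130). The hydrolases that rose included *Neu1*, which removes sialic acids (21.8 to 29.6 against 13.9 to 16.1 CPM, 1.73-fold, adjusted p = 0.00217), and *Hexa*, a subunit of hexosaminidase (12.9 to 15.5 against 8.51 to 8.86 CPM, 1.62-fold, adjusted p = 0.00525). The tetraspanin *Cd63* had 357 to 436 against 249 to 317 CPM (log2 difference 0.52, adjusted p = 0.0121).

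The factors known to switch on such genes did not rise as transcripts. *Tfeb* (-0.09, adjusted p = 0.839) and *Tfe3* (-0.04, adjusted p = 0.885) did not pass, and *Mitf* was lower at 18.6 to 20.5 against 24 to 29.4 CPM, without overlap (-0.42, adjusted p = 0.0623, or 0.0255 with the block). In the KEGG lysosome set of 111 measured genes, 11 rose and 1 fell (19 and 1 with the block), with a median of 0.13. Here *Atp6v0b*, a subunit of the proton pump, rose from 62.9, 89.3 and 74.7 CPM to 128, 106, 127 and 105 CPM (1.54-fold, adjusted p = 0.00880), and the protease *Lgmn* from 23.9 to 30.4 CPM to 37.9 to 41.0 CPM (1.4-fold, adjusted p = 0.0135). The 1 that fell, *Ap1m2*, encodes a subunit of the clathrin adaptor of epithelial cells and not a lysosomal enzyme (1.86-fold, adjusted p = 0.00400). Of the 7 listed genes, *Gpnmb*, *Lamp1*, *Neu1* and *Hexa* passed without NoASP shSCR replicate 4 and the other 3 did not, and 4 of the 7 passed without both end libraries. Without NoASP shSCR replicate 2 *Atp6v0b* (adjusted p = 0.101), *Lgmn* (0.149) and *Ap1m2* (0.0537) did not pass, nor did *Atp6v0b* without replicate 4 (0.0647). Against ASP shSCR 11 rose and 1 fell, and against ASP shGRIN2D 2 rose and 2 fell, with medians of 0.28 and 0.09. The leukocyte marker sum, 13.2 to 17.6 against 10.8 to 11.2 CPM, was mostly the single gene *Cd68*, at 12.1 to 16.0 against 9.50 to 10.6 CPM. *Cd68* did not pass (adjusted p = 0.263), and what part the sum had in this list was not tested.

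The promoters of lysosomal genes are known for the letters CACGTG, which MiT/TFE factors read, and the windows of *Lamp1* and *Atp6v0b* are shown because both genes rose and both carry the motif more than once close to the start. Each is the 250 bases before the RefSeq start (GRCm38.p6, a build other than that of the counts), 5′ to 3′ on the strand of the gene, with CACGTG in capitals; *Lamp1* is on the plus strand at chr8:13158911-13159160 and *Atp6v0b* on the minus strand at chr4:117887330-117887579.

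Lamp1: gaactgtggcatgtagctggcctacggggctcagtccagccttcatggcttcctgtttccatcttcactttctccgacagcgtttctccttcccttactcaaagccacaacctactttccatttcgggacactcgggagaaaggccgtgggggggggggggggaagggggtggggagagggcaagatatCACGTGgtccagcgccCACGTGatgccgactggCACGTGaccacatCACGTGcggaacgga

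Atp6v0b: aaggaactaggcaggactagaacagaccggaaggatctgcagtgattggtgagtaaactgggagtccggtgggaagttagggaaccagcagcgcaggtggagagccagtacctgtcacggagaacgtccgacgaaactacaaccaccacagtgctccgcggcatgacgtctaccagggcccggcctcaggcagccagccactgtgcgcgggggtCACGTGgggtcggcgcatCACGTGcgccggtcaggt

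*Lamp1* had 4 matches, starting 61, 45, 28 and 15 bases before the start, and *Atp6v0b* had 2, at 36 and 18. CACGTG, which reads the same on both strands, was in the 300-base windows of 11 of the 29 listed lysosomal genes with a window (37.9%), against 8.09% of 27025 genes. Lysosomal genes are known for these letters, so this share describes the list and is no result of these libraries. Among the 5 of the 7 listed genes that rose and had a window, CACGTG was in 1, *Lamp1*. The related letters CATGTG, searched on both strands, were in 4 of the 29 (13.8%) against 15.9% of genes, and among the 5 in *Neu1* only. The window of *Gpnmb* held neither, which says only that these letters are not in that stretch.

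Several keratins and epithelial genes fell. Of 19 measured genes, 0 rose and 6 fell (1 and 9 with the block), with a median log2 difference of -0.25 (-0.16 without ASP shDHPS replicate 4 or NoASP shSCR replicate 3) and 17 of 19 negative. *Krt19*, a keratin of simple epithelia, stood at 87.8, 87.2, 89.4 and 81.2 CPM in ASP shDHPS and at 188, 152 and 141 CPM in NoASP shSCR. The knockdown libraries were close together, far below the controls, and the gene fell 1.85-fold (log2 difference -0.89, SE 0.116, adjusted p = 0.000299). *Krt14*, a keratin of basal cells, fell 1.75-fold (53.9 to 61.5 against 87.4 to 109 CPM, adjusted p = 0.000165), *Krt7* 1.45-fold (531 to 642 against 815 to 878 CPM, adjusted p = 0.00228) and *Krt15* 2.49-fold from a low level (1.27 to 1.84 against 3.00 to 5.09 CPM, adjusted p = 0.00500).

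The adhesion molecule *Epcam* (418 to 512 against 582 to 662 CPM, 1.37-fold, adjusted p = 0.00720) and *Esrp1*, a splicing factor of epithelial cells (57.0 to 63.0 against 71.9 to 93.0 CPM, log2 difference -0.51, adjusted p = 0.00610), fell too. Other epithelial genes did not pass: *Cdh1*, which encodes E-cadherin, gave -0.07 (adjusted p = 0.787), *Krt8* -0.19 (adjusted p = 0.279) and *Krt18* -0.25 (adjusted p = 0.197, or 0.0306 with the block). The claudins *Cldn3*, *Cldn4* and *Cldn7* gave 0.33, 0.21 and -0.02, with *Cldn3* passing only with the block (adjusted p = 0.0263). Of the 6 genes, *Krt7*, *Krt14* and *Krt19* passed without NoASP shSCR replicate 2, while *Krt15* (adjusted p = 0.07), *Epcam* (0.0796) and *Esrp1* did not. Against ASP shSCR 8 fell and 1 rose, with a median of -0.31, and against ASP shGRIN2D 2 fell and 3 rose, with a median of 0.10. *Krt7* had a mean of 552 CPM in ASP shGRIN2D and 580 CPM in ASP shDHPS (log2 difference 0.07, adjusted p = 0.749), whereas *Krt14* was lower in ASP shDHPS than in ASP shGRIN2D (-0.58, adjusted p = 0.00139).

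Genes of the ATF4 program, which cells use under amino acid shortage and other stress, rose in part. Of 28 measured genes, 3 rose and 1 fell (8 and 2 with the block), the median was 0.16 (0.26 without NoASP shSCR replicate 4) and 22 were positive. *Chac1*, an enzyme that degrades glutathione, was at 22.7, 19.0, 23.6 and 19.2 CPM in ASP shDHPS and at 8.57, 13.3 and 10.7 CPM in NoASP shSCR. The groups were apart, and the gene rose 1.95-fold (log2 difference 0.96, SE 0.148, adjusted p = 0.00130). *Atf3*, a stress-induced transcription factor, rose 2.02-fold from 6.53, 11.2 and 9.95 CPM to 18.7, 14.9, 22.4 and 18.3 CPM (adjusted p = 0.00491). *Eif4ebp1*, which encodes an inhibitor of cap-dependent translation, rose 1.30-fold (128 to 138 against 97.1 to 110 CPM, adjusted p = 0.0253).

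*Cth*, which makes cysteine, fell (3.67 to 6.51 against 7.07 to 11.4 CPM, 1.73-fold, adjusted p = 0.0435). *Atf4* itself gave 0.25 (adjusted p = 0.221), and *Ddit3*, which encodes CHOP, had 21.4 to 29.2 against 12 to 16.9 CPM without passing (0.77, adjusted p = 0.0559, or 0.000563 with the block). *Asns*, at 69.2 to 91.4 against 49.1 to 66.3 CPM, passed only with the block (adjusted p = 0.0866 and 0.0273). Without NoASP shSCR replicate 2, 1 of the 4 genes passed: *Chac1*, while *Eif4ebp1* (0.165) and *Cth* (0.299) were lost along with *Atf3*. *Eif4ebp1* was also lost without ASP shDHPS replicate 3 (0.0665) or NoASP shSCR replicate 4 (0.136), and *Cth* without ASP shDHPS replicate 2 (0.0921) or 3 (0.131) or NoASP shSCR replicate 4 (0.138). Set against ASP shGRIN2D, 6 of the 28 were higher in ASP shDHPS and 0 lower, among them *Chac1* (log2 difference 1.13, adjusted p = 8.88e-05), *Atf3* (0.74, adjusted p = 0.024) and *Eif4ebp1* (0.41, adjusted p = 0.00891).

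The windows of *Atf3* and *Chac1* are shown because both genes were among the 14 largest rises and both hold the composite element TGATGNAA that ATF4 with a C/EBP partner is known to bind. Each is again the 250 bases before the RefSeq start in GRCm38.p6, *Atf3* on the minus strand at chr1:191183334-191183583 and *Chac1* on the plus strand at chr2:119350992-119351241. The match is in capitals and was read on the reverse strand in both.

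Atf3: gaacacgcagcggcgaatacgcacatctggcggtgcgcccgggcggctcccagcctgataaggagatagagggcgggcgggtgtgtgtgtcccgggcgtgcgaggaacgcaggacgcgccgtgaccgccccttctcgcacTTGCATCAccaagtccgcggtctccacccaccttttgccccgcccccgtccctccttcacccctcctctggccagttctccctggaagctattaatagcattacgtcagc

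Chac1: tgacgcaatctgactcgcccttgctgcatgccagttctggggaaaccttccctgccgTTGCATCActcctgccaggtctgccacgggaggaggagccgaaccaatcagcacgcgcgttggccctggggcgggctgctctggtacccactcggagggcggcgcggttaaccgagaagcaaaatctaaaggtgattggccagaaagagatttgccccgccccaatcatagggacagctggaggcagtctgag

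The match starts 110 bases before the start in *Atf3* and 193 bases before it in *Chac1*, and the 8 bases are the same, TTGCATCA. TGATGNAA on either strand was in the windows of 9 of the 24 listed genes with a window (37.5%), against 4.51% of 27025 genes. The list was made of genes of the ATF4 program, so this share describes the list and is no result of these libraries. *Eif4ebp1* and *Cth* had no window in the table. The 9 included *Asns*, *Trib3* and *Slc7a11*, which did not pass in the main comparison.

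In polyamine metabolism, the first enzyme of synthesis and a transporter rose. Of 16 measured genes, 2 rose and 0 fell (4 and 1 with the block), with a median of 0.19. The median was 0.11 without NoASP shSCR replicate 2, 0.12 without ASP shDHPS replicate 1 and 0.08 without both, and 1 gene passed without NoASP shSCR replicate 2 or 4, without ASP shDHPS replicate 3 and without both end libraries. *Odc1*, ornithine decarboxylase, which makes the precursor of spermidine, was at 936, 806, 722 and 687 CPM in ASP shDHPS and at 456, 532 and 512 CPM in NoASP shSCR. All 4 knockdown libraries exceeded all 3 controls, and the gene rose 1.58-fold (log2 difference 0.66, SE 0.109, adjusted p = 0.00257). *Atp13a4*, an ATPase of the family that carries polyamines, rose 2.15-fold from 3.10, 5.70 and 4.89 CPM to 9.56, 7.93, 10.7 and 11.0 CPM (adjusted p = 0.0242). Both were also higher than in ASP shGRIN2D, by 0.54 (adjusted p = 0.00671) and 1.59 (adjusted p = 0.00105). With the block alone, *Sat1*, which acetylates spermidine, and *Oaz1*, the antizyme that targets ornithine decarboxylase, also passed as higher (adjusted p = 0.00885 and 0.0165) and *Paox*, a polyamine oxidase, as lower (adjusted p = 0.0074). The enzymes that convert putrescine to spermidine and spermine, *Srm* (0.31, adjusted p = 0.327) and *Sms* (-0.03, adjusted p = 0.925), did not pass.

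In iron handling, 3 of 18 measured genes rose and 0 fell (5 and 1 with the block), with a median of 0.05 that ran from -0.03 without ASP shDHPS replicate 1 to 0.16 without NoASP shSCR replicate 2. *Fth1*, the heavy chain of ferritin, was among the most abundant transcripts, at 11844, 11466, 12665 and 11214 CPM against 6473, 8203 and 7243 CPM. It rose 1.61-fold (adjusted p = 0.00161), and because the genome holds many processed copies of *Fth1*, its count is less certain than most. *Hmox1*, which breaks down heme, rose 1.98-fold (75.8, 56.5, 107 and 90.5 CPM against 26.7, 56.5 and 41.7 CPM, adjusted p = 0.0152), although replicate 2 of the knockdown and replicate 3 of the control had the same level. *Slc11a2*, the divalent metal importer, rose 1.45-fold (38.1 to 49.4 against 29.1 to 30.6 CPM, adjusted p = 0.0187). *Fth1* was the 1 gene of the 3 that passed without NoASP shSCR replicate 2, where *Hmox1* gave an adjusted p of 0.137 and *Slc11a2* 0.0832, and also without replicate 4 (0.0916 and 0.0914). *Hmox1* was lost without ASP shDHPS replicate 3 too (0.0646), and *Slc11a2* without ASP shDHPS replicate 2 (0.0582).

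Among 25 cytokine and NF-κB genes, chosen because several attract neutrophils, 3 rose and 0 fell (7 and 1 with the block), with a median of 0.45 (0.71 without NoASP shSCR replicate 2 and 0.29 without replicate 3). *Il1a* was at 259, 236, 199 and 224 CPM against 145, 141 and 139 CPM and rose 1.62-fold (adjusted p = 0.00539). The chemokine *Cxcl16* rose 1.52-fold (78.1 to 83.5 against 49.0 to 55.4 CPM, adjusted p = 0.00539), and *Ccl2* 3.51-fold from a level near the lower limit (1.35 to 3.33 against 0.278 to 0.791 CPM, adjusted p = 0.0457). For aspartate alone *Ccl2* had a difference of 1.19 (unadjusted p = 0.0196), against 0.62 for the hairpin under aspartate (adjusted p = 0.38), and the gene missed the test without ASP shDHPS replicate 1 (0.0744) or 2 (0.11) or NoASP shSCR replicate 2 (0.162) or 4 (0.227). The median of the list was 0.40 for aspartate alone and 0.10 for the knockdown against ASP shSCR. *Cxcl16* was lost without NoASP shSCR replicate 2 (0.0592). *Csf3* and *Cxcl1*, granulocyte growth factor and chemokine, had overlapping values and passed only with the block (83.3 to 130 against 47.7 to 91.9 CPM, adjusted p = 7.34e-05; 109 to 163 against 64.5 to 140 CPM, adjusted p = 0.00157).

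Interferon-related genes rose singly. In a list of 24 type I interferon response genes 2 rose (3 with the block). The 2 were *Bst2* (18.3 to 22.3 against 10.7 to 14.6 CPM, 1.63-fold, adjusted p = 0.00642) and *Isg15* (5.36 to 7.79 against 3.59 to 4.39 CPM, 1.71-fold, adjusted p = 0.0312), while the median was 0.0032. *B2m*, the light chain of MHC class I, had 659, 551, 676 and 599 CPM against 425, 458 and 403 CPM (1.45-fold, adjusted p = 0.00291). Its level in ASP shGRIN2D, with a mean of 665 CPM, did not differ detectably from that in ASP shDHPS (log2 difference -0.10, adjusted p = 0.643). Without NoASP shSCR replicate 4 neither *Bst2* (0.0663) nor *Isg15* (0.112) passed, and *Isg15* was also lost without NoASP shSCR replicate 2 (0.103) or 3 (0.0662) or ASP shDHPS replicate 2 (0.0774) or 3 (0.0855).

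The study followed collagen and TGF-β downstream of hypusination by polysome profiling, SMAD3 phosphorylation, a TGF-β inhibitor, added collagen I and collagen staining. The staining covered spheroids and lung metastases. The study measured *Col1a1* mRNA in spheroids with and without aspartate. Its polysome contrasts were made against control spheroids with aspartate, which this comparison leaves out. The values here are mRNA of the lysate and do not test those measurements. Few of these genes passed. Of 24 measured collagen chains and modifying enzymes, 1 rose and 1 fell (1 and 4 with the block), with a median of -0.34. That median was -0.21 without ASP shDHPS replicate 1, -0.08 without both end libraries, -0.19 with the length and GC correction and -0.12 with the correction and the block. *Pcolce*, which enhances the cleavage of the collagen C-propeptide, had the smallest adjusted p of all genes, 5.85e-06. It stood at 60.6, 74.5, 67.0 and 69.5 CPM in ASP shDHPS and at 160, 134 and 137 CPM in NoASP shSCR, a fall of 2.12-fold (log2 difference -1.08, SE 0.1) that was kept without each of the 7 libraries. Against ASP shGRIN2D it was lower too (-0.80, adjusted p = 4.12e-05). *P3h1*, a prolyl hydroxylase of collagen, rose 1.70-fold (8.19 to 11.3 against 4.66 to 6.78 CPM, adjusted p = 0.0256), a call lost without ASP shDHPS replicate 2 (0.0511) or 3 (0.0923) or NoASP shSCR replicate 2 (0.202) or 4 (0.0502). *Col1a1* was under 1.3 CPM in each of the 7 libraries and did not pass (adjusted p = 0.223), nor did *Col6a1* (32.9 to 62.0 against 49.0 to 53.6 CPM, adjusted p = 0.864).

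Of 21 TGF-β ligands, receptors and Smads, 0 passed by edgeR and 0 by DESeq2 (4 at an unadjusted p under 0.05, and 1 with the block). Over all genes with over 3 counts, an unadjusted p under 0.05 was reached by 3106 of 16573. *Tgfb1* had 81.3, 156, 157 and 156 CPM against 147, 141 and 158 CPM, so that replicate 1 of the knockdown stood alone. *Tgfb2*, *Tgfb3* and *Smad3* gave log2 differences of 0.70, -0.20 and -0.27, with adjusted p of 0.317, 0.306 and 0.305. In the Hallmark TGF-β set 1 of 51 genes passed (2 higher and 5 lower with the block), *Pmepa1*, an induced inhibitor of the pathway, lower in ASP shDHPS (85.1 to 106 against 105 to 160 CPM, adjusted p = 0.0439). Its groups overlapped slightly, and it missed the test without NoASP shSCR replicate 2 (0.339) or 4 (0.157) or ASP shDHPS replicate 1 (0.0824) or 3 (0.131). Mesenchymal genes gave 0 of 12 by edgeR and 2 by DESeq2 (6 at an unadjusted p under 0.05, and 2 higher and 3 lower with the block). *Fn1*, fibronectin, was at 403, 701, 904 and 1053 CPM against 1527, 1184 and 1353 CPM (-0.82, adjusted p = 0.0748, or 0.000117 with the block), and *Vim* at 1359 to 1700 against 1216 to 1306 CPM (0.33, adjusted p = 0.0652, or 0.0126). Both were without overlap, with opposite signs.

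The NMDA receptor and CREB list gave 1 of 10, *Grina* (135 to 167 against 103 to 125 CPM, 1.29-fold, adjusted p = 0.0465), which is a receptor-associated protein and no channel subunit. *Grina* passed in 2 of the 7 fits without 1 library, those without ASP shDHPS replicate 2 and NoASP shSCR replicate 3, and in the others gave an adjusted p of 0.0527 (without ASP shDHPS replicate 4) to 0.299 (without NoASP shSCR replicate 2). *Grin2d* was low in both groups (2.21 to 4.59 against 3.05 to 6.95 CPM, adjusted p = 0.309). *Creb1* gave -0.16 (adjusted p = 0.483). The coactivator *Ep300* was lower without overlap, at 63.5 to 99.8 against 103 to 119 CPM, and passed only with the block (adjusted p = 0.0515 and 0.00694).

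Genes that use or carry aspartate did not pass, although the medium differed in this amino acid. Of 25 measured genes 0 passed by edgeR and 1 by DESeq2 (4 at an unadjusted p under 0.05), with a median of -0.02, and with the block *Asns* was higher and *Cad*, the first enzyme of pyrimidine synthesis, lower (76.4 to 119 against 106 to 146 CPM, adjusted p = 0.117, or 0.0298 with the block). Translation factors gave 0 of 44 by edgeR and 1 by DESeq2 (8 at an unadjusted p under 0.05, and 1 higher with the block), with a median of 0.08, and *Eif6* and *Eif4e* had differences of 0.36 and 0.30 (adjusted p = 0.0938 and 0.156). In the KEGG ribosome set 0 of 82 passed by edgeR (40 at an unadjusted p under 0.05), with all 82 log2 differences above 0 and a median of 0.22. With the block 11 passed, all higher. The groups did not overlap in 6 of the 82, all higher, a share below the 13.6% of all genes with over 3 counts. Values of this set with the length and GC correction or with single libraries left out are not reported here.

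**Figure D4:**
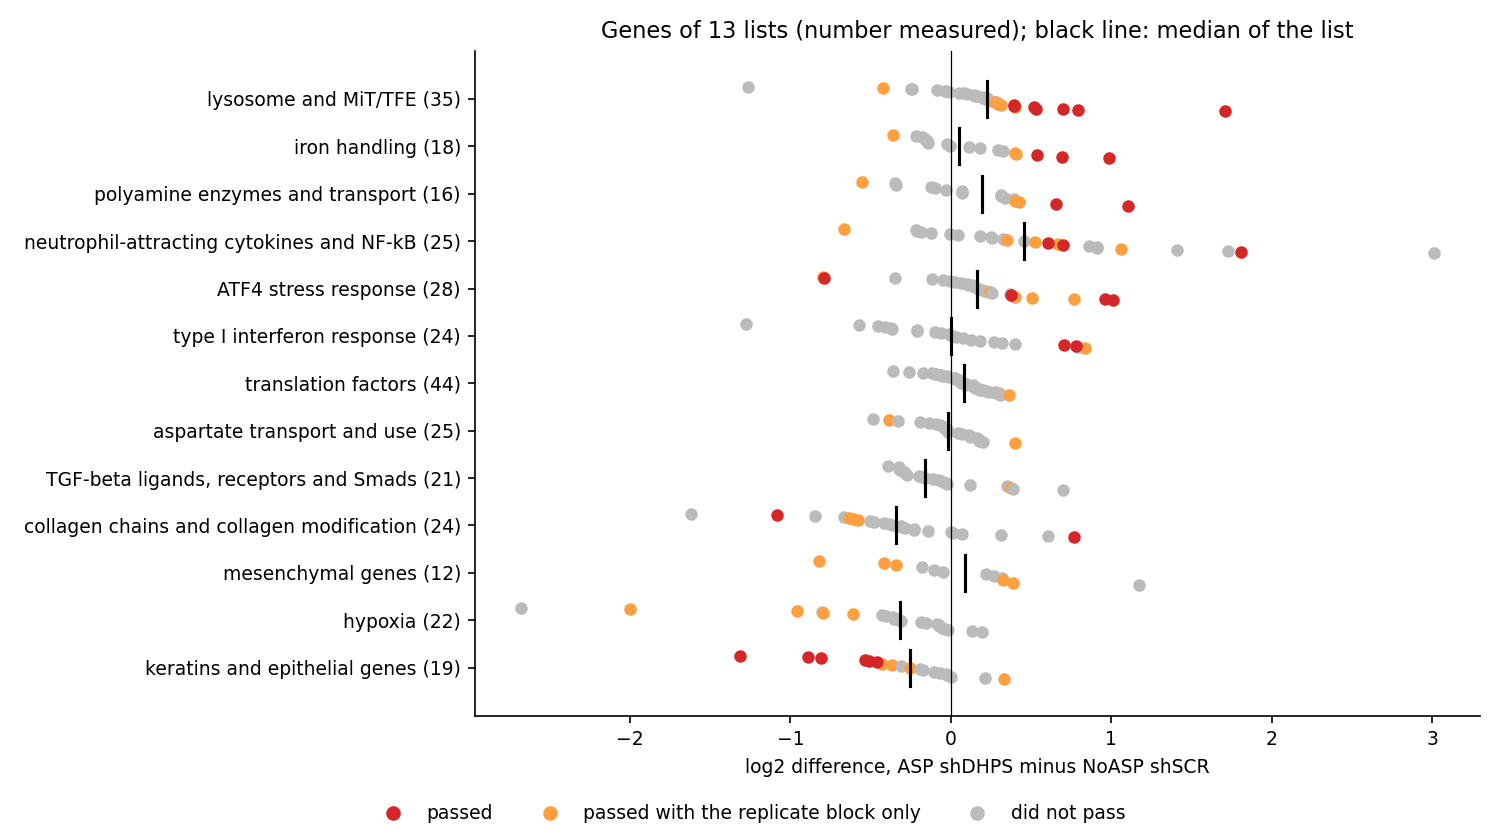
Log2 difference (ASP shDHPS minus NoASP shSCR) of each measured gene of 13 lists, with the number measured after each name; red passed, orange passed only with the replicate block, grey did not pass, and the black line is the median of the list. The lysosomal list lies mostly to the right with a median of 0.23 and the keratin list to the left with -0.25.

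Hypoxia genes had mostly negative differences, none of which passed without the block. Of 22 measured genes 0 passed by edgeR and 0 by DESeq2 (6 at an unadjusted p under 0.05), 20 were negative and the median was -0.32, and with the block 4 fell: *Ankrd37*, *Ddit4*, *Pdk1* and *Plod2*. The median rested on NoASP shSCR replicate 2: it was -0.04 without that library, and again without both end libraries, -0.48 without NoASP shSCR replicate 4 and -0.17 with the block. The controls were spread widely. *Ankrd37* had 16.9, 2.80 and 2.06 CPM in NoASP shSCR and 1.55 to 2.13 CPM in the knockdown. Without NoASP shSCR replicate 2 its log2 difference was -0.43 in place of -2.00. Glycolysis genes gave 0 of 19 by edgeR and 1 by DESeq2 (4 at an unadjusted p under 0.05, and 2 lower with the block), and *Aldoc* followed the same libraries, with 23.6, 9.87 and 9.51 CPM against 5.87 to 8.40 CPM (adjusted p = 0.132). In the Hallmark hypoxia set, which holds many genes with other uses, 7 rose and 3 fell of 169 (13 and 11 with the block), and the 7 included *Atf3*, *Ccn1*, *Gpc4*, *Hexa* and *Hmox1*, already described.

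Of 34 measured cell cycle genes 0 rose and 1 fell (1 and 2 with the block), *Mki67*, which marks dividing cells (298, 392, 388 and 473 CPM against 629, 523 and 599 CPM, 1.50-fold, adjusted p = 0.0253), a call lost without NoASP shSCR replicate 2 (0.165) or 4 (0.121) or ASP shDHPS replicate 1 (0.0567) or 3 (0.0676). In the Hallmark E2F set 4 of 199 fell and 1 rose (10 and 6 with the block). The share that passed was 2.94% of the cell cycle list and 2.51% of the E2F set, near the 2.14% of all genes with over 3 counts. The E2F genes that fell included *Pold1*, the catalytic subunit of DNA polymerase delta (35.8 to 39.9 against 54.4 to 57.1 CPM, 1.45-fold, adjusted p = 0.0106), and *Lig1*, the DNA ligase of replication (1.33-fold, adjusted p = 0.0206). Both were lost without NoASP shSCR replicate 2 (0.0544 and 0.144) or 4 (0.0663 and 0.0888).

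Among the other Hallmark sets, the early estrogen response had the most members that fell, 12 of 173 with 2 that rose (30 and 7 with the block), and a median of -0.11. Those that fell included *Krt15*, *Krt19*, the transcription factor gene *Egr3* and *Rps6ka2*, a ribosomal S6 kinase (42.0 to 55.9 against 69.5 to 92.4 CPM, 1.68-fold, adjusted p = 0.00130). *Gper1*, which fell, is outside this set. Oxidative phosphorylation genes gave 8 higher and 1 lower of 197 (19 and 3 with the block) with a median of 0.15. The 8 included *Uqcr11* (log2 difference 0.57, adjusted p = 0.0300), *Uqcrq* (0.51, adjusted p = 0.0433) and *Ndufa2* (0.47, adjusted p = 0.0497). They are small subunits of the respiratory chain chosen here after their values were seen, and their values with single libraries left out are not reported here. *Idh1*, the cytosolic isocitrate dehydrogenase, was the 1 that fell (88.4 to 115 against 130 to 172 CPM, adjusted p = 0.0125). The epithelial-mesenchymal transition set gave 5 higher and 6 lower of 141 (14 and 15 with the block). Of these, *Itgb3*, an integrin subunit, fell (8.06 to 11.1 against 16.2 to 21.4 CPM, 2.08-fold, adjusted p = 0.00109), with *Lama3*, a laminin of epithelial basement membranes (1.64-fold, adjusted p = 0.00628), and *Serpinb5*, maspin, of the p53 set fell 1.64-fold (adjusted p = 0.00253). *Itgb3* was far lower than in ASP shGRIN2D as well (-1.92, adjusted p = 4.89e-07), where its mean was 34.3 CPM. Without NoASP shSCR replicate 2, *Lama3* (adjusted p = 0.0795), *Egr3* (0.0603) and *Idh1* (0.154) did not pass.

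In the remaining Hallmark sets the counts were larger with the block. The p53 set gave 7 higher and 4 lower of 189 (19 and 12 with the block), TNF signalling 7 and 3 of 181 (20 and 8), cholesterol homeostasis 4 and 3 of 70 (6 and 9) and the unfolded protein response 4 and 1 of 111 (6 and 3). Interferon alpha gave 3 higher and 2 lower of 99 (8 and 4 with the block), glycolysis 2 and 5 of 176 (6 and 9), mTORC1 signalling 1 and 3 of 198 (10 and 11), G2M checkpoint 1 and 2 of 198 (2 and 7) and the first MYC set 2 and 1 of 201 (9 and 2). The share that passed was 2.02% in mTORC1 signalling, 1.52% in G2M checkpoint and 1.49% in the first MYC set, below the 2.14% of all genes with over 3 counts. The p53, TNF, cholesterol, unfolded protein, interferon alpha and glycolysis sets lay above it. In the second MYC set 0 of 58 passed by edgeR (9 at an unadjusted p under 0.05, and 5 higher with the block). *Clu*, the secreted chaperone clusterin, of the cholesterol set was at 463, 418, 481 and 427 CPM against 832, 623 and 665 CPM and fell 1.58-fold (adjusted p = 0.00242). *Dmd*, dystrophin, of the G2M set had 4.70 to 5.67 against 8.13 to 12.3 CPM (2.07-fold, adjusted p = 0.00217), and *Capn5*, a calpain, of the glycolysis set 16.3 to 25.2 against 33.6 to 45.8 CPM (1.83-fold, adjusted p = 0.00231). These 3 genes fell without overlap and passed with each single library left out, and *Dmd* was at a mean of 5.53 CPM in ASP shGRIN2D, where the difference was -0.08 (adjusted p = 0.884).

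The 28 genes with the strongest rises and falls were set against each other group. All 14 rises and 13 of the 14 falls also passed against ASP shSCR, where 4.22% of all genes passed. The 28 were chosen by their values in the ASP shDHPS libraries, which the comparisons with ASP shSCR and ASP shGRIN2D reuse. Passing there is therefore no independent support. For aspartate alone 0 of the 28 passed, and 3 rises and 0 falls had an unadjusted p under 0.05. The differences for aspartate alone ran from -0.48 to 0.50 for the rises and from -0.32 to 0.32 for the 13 falls shown. Against ASP shGRIN2D, 8 rises and 7 falls passed. Those 8 were *Gpnmb*, *Prnd*, *Atp13a4*, *Atf3*, *Chac1*, *Ccn1*, *Cst6* and *Chchd10*, and the 7 were *Mgat3*, *Dhps*, *Padi3*, *Ace*, *Galnt15*, *Gper1* and *Prex1*, with 2.82% of all genes passing in that comparison.

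*Ace* differed between the silenced lines, with a mean of 83.0 ± 13.3 CPM (SD, n = 3) in ASP shGRIN2D against 21.5 ± 4.45 CPM (SD, n = 4) in ASP shDHPS (-1.95, adjusted p = 9.29e-06). *Prnd* was above ASP shGRIN2D by 1.85 (adjusted p = 9.29e-06). *Mmp9* had a mean of 31.1 CPM in ASP shGRIN2D, and its difference of -0.32 from there did not pass (adjusted p = 0.489). *Pgap1* (-0.16, adjusted p = 0.794) and *H2bc4* (-0.30, adjusted p = 0.341) likewise did not pass against ASP shGRIN2D. For these genes a response to the loss of *Dhps* cannot be told apart, in these libraries, from one that both targeting hairpins share.

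**Figure D5:**
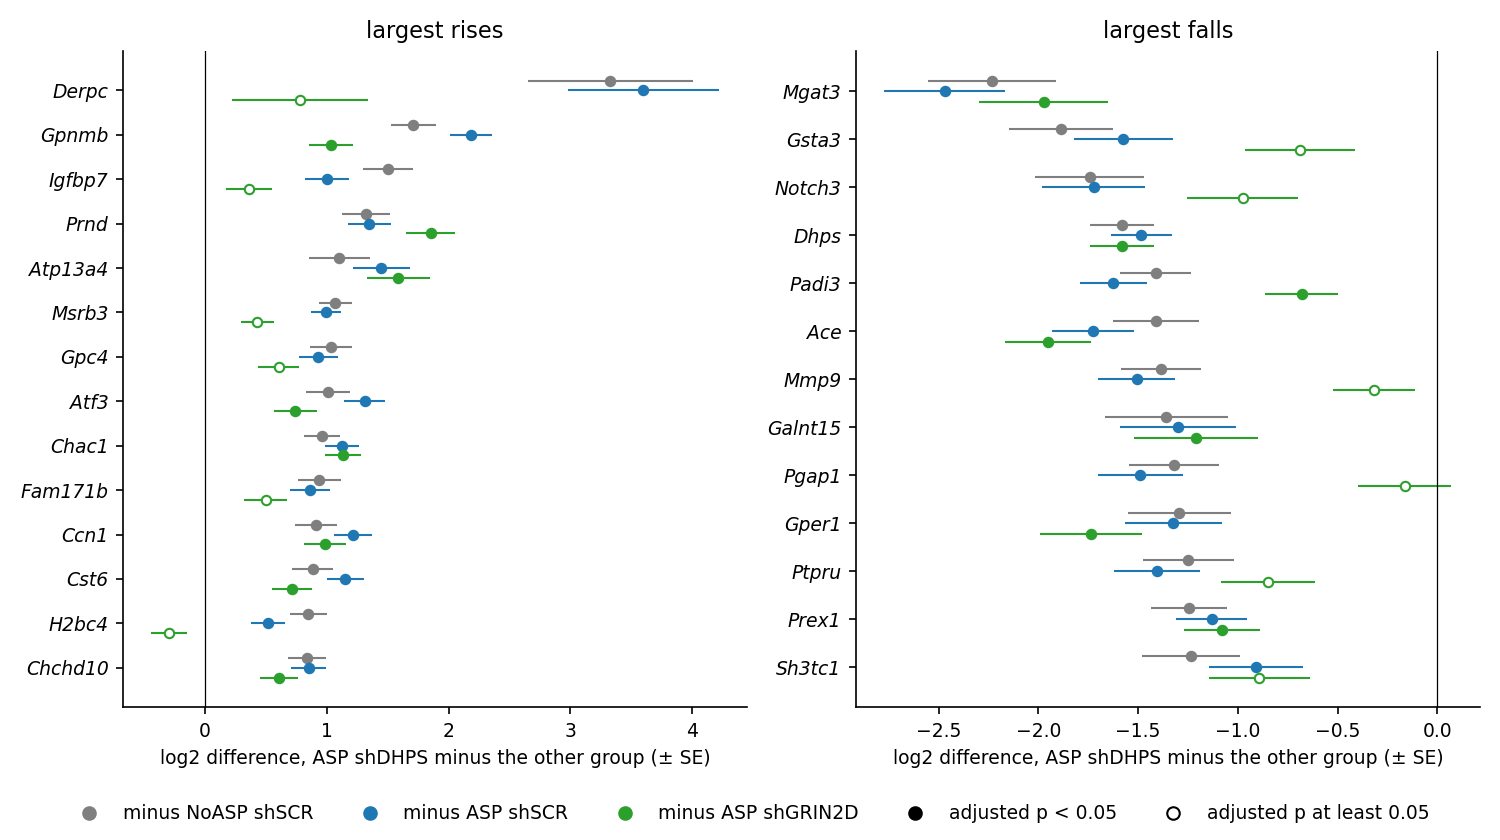
Log2 difference of ASP shDHPS minus NoASP shSCR (grey), minus ASP shSCR (blue) and minus ASP shGRIN2D (green) for the 14 largest rises and 13 of the 14 largest falls, with SE bars; filled points have an adjusted p under 0.05. Grey and blue points lie on the same side of 0 for every gene shown, and 15 green points are filled.

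Transcript length moved with the direction of change. The median length of the longest annotated transcript was 2259 bases for the 122 higher genes and 4455 bases for the 232 lower ones, against 3463 bases for all genes of at least 5 CPM. After the correction for length and GC content the medians were 3208.5 and 3426 bases, and 307 of the 354 genes were among the 493 that passed. Of the 74 named genes that passed, 70 still did, and *Isg15* (adjusted p = 0.104), the cytokine receptor gene *Il4ra* (0.14), *Ccl2* (0.0642) and *Pmepa1* (0.0891) were lost. With the correction and the replicate block together 341 of the 354 were among the 1238 that passed, with medians of 3622 and 3498 bases. What part length had in the uncorrected difference was not tested.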

How the data were processed

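RNA from the cytosolic lysate of spheroids was sequenced. Per the labels and the study's methods, the authors trimmed reads with Trim Galore 0.6.6, checked them with FastQC 0.11.9, aligned them to GRCm39 with STAR 2.6.1 and deposited Salmon 1.4.0 gene abundances rounded to whole counts, without genes that lacked expression in the replicates. The authors' tables of DESeq2 and gene set enrichment results were not used, and their gene set file was used only for member names. The deposited counts of 19525 genes in 14 libraries entered edgeR 4.0.16 (R 4.3.3) with TMM normalization and a quasi-likelihood test, group as the sole term and Benjamini-Hochberg adjustment over all genes at 0.05. CPM are TMM scaled, and fitted differences used edgeR's default prior count. A prior count of 2 entered only the log2 CPM behind the principal components, the correlations between libraries and the length and GC correction. The 7 libraries compared held 14883457 to 19346701 counts each, while the spread behind the p-values was estimated over all 14 libraries. Of the rows, 535 are named by their Ensembl identifier alone. The script was tested on simulated data.

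The members, gene lists and tests were chosen with earlier results of these data known. Named genes were the 14 largest rises and falls among genes that passed with at least 5 CPM in the higher group, without overlap and with a regular symbol, 12 genes of the studied pathway, up to 4 members of each of 21 lists and up to 3 of each of 18 sets by p. Other members are named to complete a count or describe a role. A member was measured with over 3 counts in a library. The replicate numbers are shared by the labels of both groups, with no source for the pairing but the data: same-numbered libraries deviated together with r of 0.21, 0.31 and 0.37 over the 10224 genes of at least 5 CPM, each best with its own number, but with 0.03, 0.10 and 0.06 over all genes. Differently numbered libraries gave r of -0.466 to 0.285 over the 10224 genes. The highest of these, ASP shDHPS replicate 1 with NoASP shSCR replicate 3, exceeded that of the same-numbered replicates 2. Same-numbered libraries were taken as pairs because their r over genes of at least 5 CPM exceeded 0.1, a rule applied to these same counts. Blocked values stand beside most list and set counts that they change. Alternatives were DESeq2 1.42.0, other normalizations, filters, tests and designs, and each library left out. The omission of 2 libraries and the corrections for length and GC content, fitted per library with splines, were added after the data were seen. Promoters came from RefSeq (GRCm38.p6), with 32851 windows of 27025 genes, 250 bases before to 50 after each start. Some named genes and list members that passed are counted but not reported here.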

Additional observations from a re-analysis of the deposited data

Results flagged for a closer look

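Within the 4 ASP shDHPS libraries, 10 of the 100 named genes had 1 library far from the other 3 by Dixon's criterion, which chance alone meets in about 1 group in 20. Groups of 3 were not examined.

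Replicate 1 accounted for 5 of them, the library at one end of the first principal component. It was low in *Tgfb1*, at 81.3 CPM against 156 to 157 in the others, in *Col6a1*, at 32.9 against 57.2 to 62.0, in *Ace*, at 14.9 against 22.8 to 24.2, and in *Lig1*, at 68.3 against 77.2 to 78.9 CPM. It was high in *Asns*, at 91.4 against 69.2 to 71.0 CPM. Of these, *Ace* and *Lig1* passed the test, and both passed without replicate 1 (adjusted p = 0.00481 and 0.0385).

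Replicate 3 was high in *Derpc*, at 48.9 CPM against 5.46 to 12.4, in *Cst6*, at 92.9 against 69.4 to 72.0, in *Tgfb3*, at 70.6 against 62.4 to 62.9, and in *Col1a1*, at 0.432 against 0.133 to 0.160 CPM. Without it *Derpc* had an adjusted p of 0.0460 and *Cst6* of 0.0288. Replicate 4 was high in *Gper1*, at 2.83 CPM against 2.52 to 2.54, a small distance in a gene whose other values were close together.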

How the results depend on the processing

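Of the 74 named genes that passed, 0 changed direction in any alternative, and 74 passed with DESeq2, 74 with RLE size factors and 74 with the replicate block. Fewer passed without ASP shDHPS replicate 3 (59), NoASP shSCR replicate 2 (38) or replicate 4 (48), in the fit of the 7 libraries alone (59) and against a change of 1.5-fold (7). The count of 354 genes became 898 with DESeq2, 177 with the compared groups alone, 1036 with the replicate block, 2332 with the block over replicates 2 to 4 of both groups alone, 8 when tested against 1.5-fold, 81 without both end libraries and 1238 with the length and GC correction and the block, and ran from 69 to 686 with single libraries left out. Against ASP shSCR, 824 became 1379 with DESeq2 and 2150 with the block, and ran from 412 to 894 with single libraries left out. Against ASP shGRIN2D, 550 became 933 with DESeq2 and 1468 with the block, and ran from 209 to 577. For aspartate alone, 0 became 2 with the block and ran from 0 to 1. Only differences that had not passed changed sign: *Creb1* to 0.0102 with the length and GC correction, *Col6a1*, which ran from -0.0182 without ASP shDHPS replicate 3 to 0.239 without ASP shDHPS replicate 1, and *Tgfb1*, at 0.0734 with the block over replicates 2 to 4 alone, 0.0674 without both end libraries, and from -0.179 without ASP shDHPS replicate 3 to 0.0759 without ASP shDHPS replicate 1. The causes were not tested. Low genes are limited by depth, *Col1a1* and *Ptprc* among them. With 4 against 3 libraries, a gene that missed the threshold was not shown to be the same in both groups.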
